A study of Mus musculus with 4 samples.

Results

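The genes described here are 10 components of the NAIP and NLRC4 sensing pathway and of the inflammasome in large peritoneal macrophages (LPMs). They were taken by name as *Naip1*, *Naip2*, *Naip5*, *Naip6*, *Nlrc4*, *Nlrp3*, *Pycard*, *Casp1*, *Casp4* and *Gsdmd*. All 10 were present among the 18364 genes of the table, and none was removed by the filter on low values. LPMs were double-sorted from the peritoneal cavity of C57BL/6 mice aged 8 weeks, and their RNA was sequenced in bulk. Per the methods of the study, the Rxra-KO animals carried *Rxra* fl/fl alleles and a Cre recombinase driven by the *LysM* (*Lyz2*) locus, and the controls were *Rxra* fl/fl littermates, which the labels call wild type (WT). The Cre driver is active across myeloid cells and not only in LPMs, both groups carry the floxed alleles, and whether RNA of several animals was pooled for a library is not given in the sources used here. There were 2 libraries per group, so no *p* value covers variation beyond these libraries. The limma *p* values take most of their variance from a trend over all genes (227 prior against 2 residual degrees of freedom).

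Inflammasomes are protein assemblies in the cytosol that sense microbes or damage and activate inflammatory caspases. NAIP proteins bind flagellin or parts of bacterial type III secretion systems and then recruit NLRC4. NLRP3 responds to membrane and ion disturbances and recruits caspase-1 through the adaptor ASC, and the caspases cut gasdermin D, which forms pores in the cell membrane.

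The libraries held 629030 to 1047021 recovered reads, with 1 shallower and 1 deeper library in each group. Levels are given as the normalised read count that the authors deposited, in which a single read was worth 0.993 to 1.51, beside the whole reads recovered from it. The reads of *Rxra* itself were 20 and 28 for WT against 33 and 77 for Rxra-KO, so it was not lower in the libraries that carry the Rxra-KO label (log2 fold change 0.99, limma adjusted *p* = 0.183). The table counts reads per gene and not per exon, so it does not show the deleted part of *Rxra*, and all directions below are between libraries as labelled. *Lyz2*, the locus that carries the Cre, had 9420 and 10684 WT reads against 4241 and 6272 Rxra-KO reads (log2 fold change -1.03, limma adjusted *p* = 0.00163). All 8 LPM markers were detected, and their summed normalised read count was 37229 and 39292 in WT against 19457 and 21535 in Rxra-KO, with 6 of the 8 called lower. Most of that sum was *Prg4*, at 28429 and 29683 in WT against 15129 and 16567 in Rxra-KO. *Timd4* was not called, and *Csf1r* ran the other way, at 1363 and 1061 against 1454 and 1637, and was not called either. The LPM factor *Gata6* had 35 and 65 WT reads against 3 and 24 Rxra-KO reads and was called lower. The others were *Itgam* and *Ltbp1*, along with *Adgre1* and *Icam2*, which encode F4/80 and CD102, the proteins used in the sort. The 7 markers of monocytes and small peritoneal macrophages (SPMs) summed to 350 and 106 in WT and to 3046 and 4470 in Rxra-KO. Of the 7, 4 were called higher, *Ccr2*, *Retnla*, *Mrc1* and *Irf4*. The largest was *Retnla*, at 146 and 32.0 in WT against 1589 and 3013 in Rxra-KO. *Ly6c2*, *Plac8* and *Chil3* had at most 5 reads in any library and were not called. The 6 dendritic cell markers summed to 48.4 and 54.2 against 93.3 and 115. Only *Cd209a* of these was called, higher in Rxra-KO at 65.5 and 80.0 against 22.0 and 14.6 in WT. *Itgax* and *Clec9a* ran lower and were not called. No marker of neutrophils, B cells, T and NK cells, mast cells, eosinophils or mesothelial cells passed the test. No marker in the table was at 0 in all 4 libraries, and neutrophils were covered by 4 of their 9 listed markers, at a sum of 126 and 169 against 97.9 and 136. Most of that sum was *Csf3r*, at 122 and 155 in WT against 80.6 and 129 in Rxra-KO. *Ngp*, *Mpo* and *Retnlg* had at most 7 reads in any library.

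Within the inflammasome genes, *Naip1* and *Pycard* were lower in the Rxra-KO libraries and the other 8 did not pass the test. *Naip1* was 3.93-fold lower and *Pycard*, the gene of the adaptor ASC, was 2.61-fold lower. A gene was called when its limma *p*, adjusted over all genes, was below 0.05 and its log2 fold change was 0.6 or more in size. By that rule 0.969% of all genes were called lower and 1.32% higher (2.29% in either direction), and among the genes with a mean of at least 100 reads 6.55% were called lower. Both called members have mean reads above that mark. Both were also called by edgeR and by voom, which called 1.06% and 0.964% of all genes lower. DESeq2, which called 0.583% of all genes lower, called *Naip1* alone, and limma without a mean-variance trend called neither, nor any other gene (0%). The groups did not overlap for 4 of the 10 members, *Naip1*, *Naip2*, *Naip5* and *Pycard*, all with both Rxra-KO libraries below both WT libraries. Of all genes, 19.3% had both Rxra-KO libraries below both WT libraries, and 38.1% had groups that did not overlap in either direction. The 4 of 10 members lie near that last share. The median log2 fold change of the 10 members was -0.15, against 0.02 over all genes, and it was -0.08 over the 9 members other than *Naip1*. The study named *Naip1*, as an inhibitor of apoptosis, from these same libraries and from separate measurements in LPMs deleted for *Rxra* and *Rxrb*. The call here uses the same libraries, so it is not independent evidence. The summed LPM and SPM markers above moved with the same contrast, and their part in the values of the inflammasome genes was not tested.

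**Figure D1:**
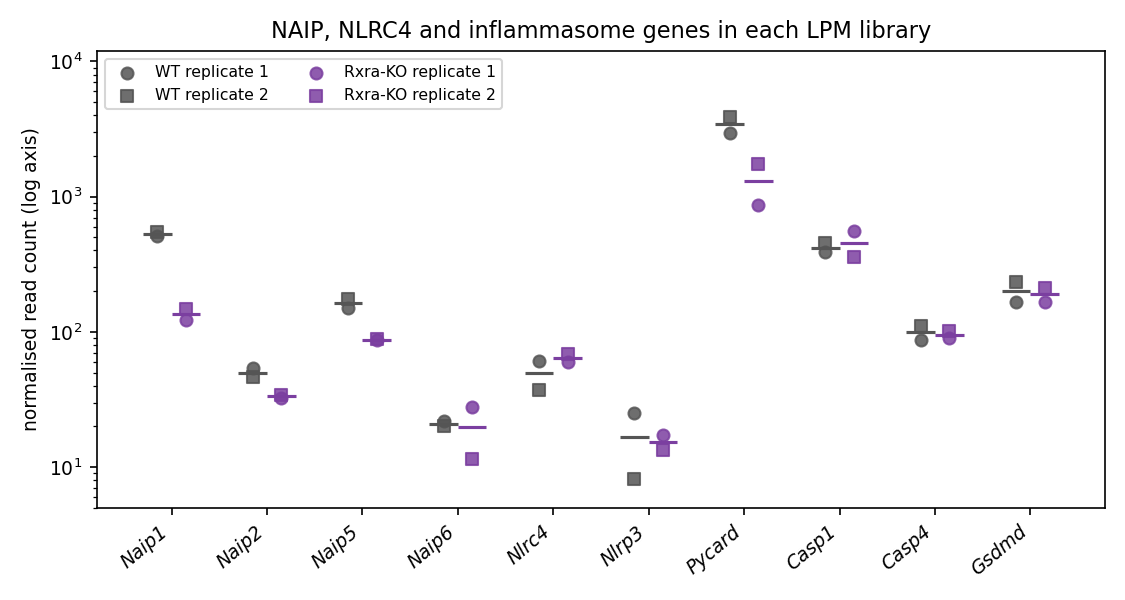
Normalised read count (log axis) of each inflammasome gene in the 2 WT libraries (grey) and the 2 Rxra-KO libraries (purple), with a line at each group mean. *Naip1*, *Naip2*, *Naip5* and *Pycard* have both Rxra-KO libraries below both WT libraries, and the other 6 genes overlap between the groups.

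*Naip1* encodes the sensor of the type III secretion needle protein. Its normalised read count was 514 and 544 in the WT libraries and 123 and 147 in the Rxra-KO libraries, from 339, 501, 81 and 147 reads. Both Rxra-KO libraries were far below both WT libraries, and the replicates of each group lay close together. The WT mean was 529 ± 21.2 against an Rxra-KO mean of 135 ± 16.8 (SD, n = 2). On the log2(value + 1) scale the fold change was -1.97 ± 0.24 (standard error), with a 95% interval from -2.44 to -1.50 (limma adjusted *p* = 4.64e-12). This placed *Naip1* at rank 42 of the 178 genes called lower. In bulk RNA, fewer cells that express a gene and less RNA per cell cannot be told apart.

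*Naip5* encodes a flagellin sensor. Its normalised read count was 151 and 175 in WT and 86.6 and 87.9 in Rxra-KO, from 99, 161, 57 and 88 reads. The groups did not overlap, and the Rxra-KO libraries differed from each other by less than the WT libraries did. The log2 fold change was -0.89 ± 0.27 (standard error), with a 95% interval from -1.43 to -0.35. The limma adjusted *p* was 0.0564, so *Naip5* was not called. It was called when the reads were scaled by median-of-ratios size factors in place of the deposited scaling (log2 fold change -0.91, limma adjusted *p* = 0.0399). A fit with a replicate block, given below, also called it. *Naip5* was not called by edgeR (adjusted *p* = 0.0546), by DESeq2 (adjusted *p* = 0.182) or by limma without a mean-variance trend (adjusted *p* = 0.615).

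*Naip2* encodes the sensor of the type III secretion rod protein. It had 35 and 42 WT reads against 21 and 34 Rxra-KO reads, which gave normalised read counts of 53.7 and 46.1 against 32.4 and 34.3. The groups did not overlap, but the log2 fold change of -0.57 had a 95% interval from -1.30 to 0.17 (limma adjusted *p* = 0.683). *Naip6* encodes the other flagellin sensor and was the least abundant of the 4 *Naip* genes in every library. It had 14 and 18 WT reads against 18 and 11 Rxra-KO reads, with normalised read counts of 22.0, 20.1, 27.9 and 11.4. The Rxra-KO libraries lay on either side of both WT libraries. The 95% interval of its log2 fold change, -0.22, ran from -1.21 to 0.77 (limma adjusted *p* = 0.966), so these reads leave room for changes of that size in either direction.

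Added together, the 4 *Naip* genes had 487 and 722 WT reads against 177 and 280 Rxra-KO reads. Their summed normalised read count was 737 and 783 in WT against 266 and 278 in Rxra-KO, which is -1.48 as a log2 fold change and is given without a test. Without *Naip1* the sum was 224 and 240 against 145 and 132, so the groups stayed apart on the reads counted for the remaining 3 genes too. *Naip1* made up 69.6% of the *Naip* reads in WT replicate 1 (95% Wilson interval 65.4 to 73.5) and 69.4% in WT replicate 2 (65.9 to 72.6). Its share was 45.8% in Rxra-KO replicate 1 (38.6 to 53.1) and 52.5% in Rxra-KO replicate 2 (46.7 to 58.3), so the intervals of the groups did not meet. The intervals cover counting error only, because the libraries carry no molecular identifiers and PCR copies of a molecule count as separate reads. The share of *Naip5* was 20.3% and 22.3% in WT and 32.2% and 31.4% in Rxra-KO. The log2 ratio of *Naip1* to *Naip5* was 1.77 and 1.63 in WT and 0.50 and 0.74 in Rxra-KO. The log2 ratio of *Naip1* to *Naip2* was 3.26 and 3.56 in WT and 1.92 and 2.10 in Rxra-KO. The log2 ratio of *Naip5* to *Naip2* was 1.49 and 1.93 in WT and 1.42 and 1.36 in Rxra-KO. Thus *Naip1* was lower relative to both of these paralogs, while the *Naip5* to *Naip2* ratio differed less between the groups. These ratios are within a library and do not depend on the scaling between libraries. They do depend on how reads shared by the *Naip* genes were divided, as described below.

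**Figure D2:**
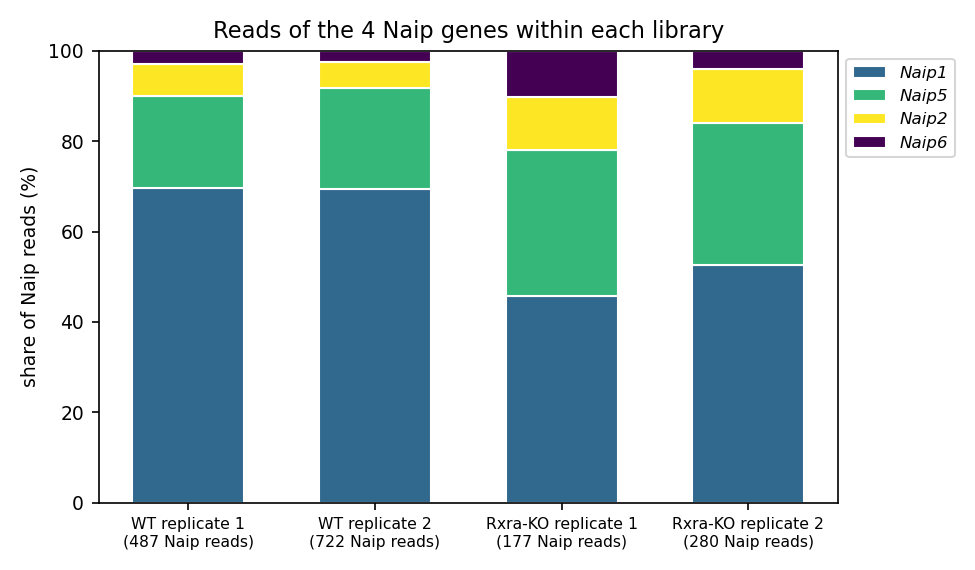
Stacked bars give the share (%) of all *Naip* reads that fell on each of the 4 *Naip* genes in each library, with the number of *Naip* reads under each bar. *Naip1* takes 69.4% to 69.6% in WT and 45.8% to 52.5% in Rxra-KO.

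The 4 *Naip* genes are close relatives, and reads can be split between them in counting. Among the GENCODE transcripts of GRCm38, 55.7% of the 31-base words of *Naip1* occurred in no other gene, against 67.2% for *Naip2*, 46.9% for *Naip5* and 65.0% for *Naip6*. The other 6 members had 87.3% to 100% of their words to themselves. The pair with most in common was *Naip5* and *Naip6*, with 1901 shared words, which are 36.7% of those of *Naip5* and 28.0% of those of *Naip6*, and a longest shared run of 229 bases. *Naip1* shared 1183 words with *Naip5*, 1020 with *Naip2* and 985 with *Naip6*, with longest runs of 174, 175 and 153 bases. It also shared 1823 words with *Naip3*, which is not listed in the table. The study's methods name Kallisto, which divides such reads by its own model, but its estimates can be fractional and the table gave whole reads throughout. How shared reads were divided in these values was therefore not settled. Words shared with *Naip1* made up 22.9% of those of *Naip5*, 21.1% of those of *Naip2* and 14.5% of those of *Naip6*. The values of single *Naip* genes, their shares and ratios, and the sum without *Naip1* are uncertain to that degree. The sum over the 4 genes above does not depend on how reads are divided among them. It does depend on reads shared with genes outside the members, and on any shared reads left out in counting. Words also found in such genes were 34.3% for *Naip1*, 22.8% for *Naip2*, 23.9% for *Naip5* and 13.5% for *Naip6*.

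The 4 *Naip* genes lie in 1 cluster on chromosome 13, on the minus strand. Their promoters are shown for the letters that *Naip1*, *Naip2* and *Naip5* share and *Naip6* lacks. These 3 genes were grouped from the values of these same libraries, as both Rxra-KO libraries lay below both WT libraries. That held for 19.3% of all genes. Of the 3 only *Naip1* was called. The 95% interval of the log2 fold change of *Naip2* (-1.30 to 0.17) overlapped that of *Naip6* (-1.21 to 0.77). The grouping is therefore not a contrast of changed with unchanged genes. A link between the shared letters and expression was not tested. The sequences are the 250 bases before the annotated start, from RefSeq on GRCm38.p6, written 5′ to 3′ on the gene's strand. The windows are chr13:100452865-100453114 for *Naip1*, chr13:100202123-100202372 for *Naip2*, chr13:100247337-100247586 for *Naip5* and chr13:100316617-100316866 for *Naip6*. Capitals mark the runs of at least 10 bases found in all of *Naip1*, *Naip2* and *Naip5*.
Naip1: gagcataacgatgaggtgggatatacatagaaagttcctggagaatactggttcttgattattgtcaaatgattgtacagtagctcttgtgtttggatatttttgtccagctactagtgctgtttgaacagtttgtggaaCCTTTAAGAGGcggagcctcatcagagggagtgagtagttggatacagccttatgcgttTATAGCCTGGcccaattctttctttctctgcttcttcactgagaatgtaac
Naip2: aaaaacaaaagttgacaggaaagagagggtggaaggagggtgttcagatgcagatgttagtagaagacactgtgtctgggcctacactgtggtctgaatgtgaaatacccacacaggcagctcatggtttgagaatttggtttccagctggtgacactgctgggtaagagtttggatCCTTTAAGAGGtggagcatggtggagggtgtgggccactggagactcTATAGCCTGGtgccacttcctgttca
Naip5: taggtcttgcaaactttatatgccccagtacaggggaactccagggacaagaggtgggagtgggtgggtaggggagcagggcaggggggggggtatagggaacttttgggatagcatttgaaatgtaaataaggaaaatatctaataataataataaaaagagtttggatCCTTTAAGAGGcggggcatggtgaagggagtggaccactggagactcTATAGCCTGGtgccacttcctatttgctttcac
Naip6: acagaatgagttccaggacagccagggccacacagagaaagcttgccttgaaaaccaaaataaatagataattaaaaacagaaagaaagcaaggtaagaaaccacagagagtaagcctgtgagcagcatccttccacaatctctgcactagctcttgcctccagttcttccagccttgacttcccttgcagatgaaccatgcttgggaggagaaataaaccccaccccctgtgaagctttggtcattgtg

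The first run, CCTTTAAGAGG, starts 110 bases before the start in *Naip1*, 73 in *Naip2* and 80 in *Naip5*, and 29 of 32851 RefSeq promoters of this length hold it (0.0883%). The second, TATAGCCTGG, starts 51, 26 and 33 bases before the start, and 18 promoters hold it (0.0548%). *Naip2* and *Naip5* also have longer runs in common, of 23 and 34 bases. The genes are paralogs, so shared letters are a description of the family and not of a binding site. The windows were also searched on both strands for AGGTCA, the half-site of nuclear receptors, which 14.0% of all promoters hold, and for an element of interferon regulatory factors, GAAA repeated after any 2 bases, which 2.98% hold. Neither set of letters was in the windows of the 9 members with an entry, *Gsdmd* having none, and this says nothing about the factors themselves. The letters AGATAA, a motif of the zinc-finger factors to which Gata6 belongs and held by 9.99% of promoters, were in *Naip6*, 185 bases before the start, and in 1 of the 2 start sites of *Nlrp3*.

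*Nlrc4*, the partner that all NAIP sensors recruit, did not pass the test. Its normalised read count was 61.3 and 37.4 in WT and 59.5 and 69.0 in Rxra-KO, from 40, 34, 39 and 69 reads. The groups overlapped, with the lowest value in WT replicate 2. With a log2 fold change of 0.41, its 95% interval ran from -0.25 to 1.08 (limma adjusted *p* = 0.791). *Nlrp3*, the sensor of a separate inflammasome, was close to the lower end of detection at 16 and 7 WT reads against 11 and 13 Rxra-KO reads. Its normalised read count was 25.0, 8.14, 17.3 and 13.4, so the WT libraries lay on either side of both Rxra-KO libraries. Its log2 fold change of 0.08 had a 95% interval from -1.04 to 1.19 (limma adjusted *p* = 0.994), and its sign turned with the model, to -0.07 in edgeR and -0.11 in DESeq2.

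*Pycard* encodes ASC, which links sensors to caspase-1 and was by far the most abundant member. Its normalised read count was 2973 and 3890 in WT and 871 and 1756 in Rxra-KO, from 1963, 3585, 578 and 1768 reads. Both Rxra-KO libraries were below both WT libraries, and Rxra-KO replicate 1 was the lowest by a wide margin. The WT mean was 3431 ± 648 against an Rxra-KO mean of 1314 ± 626 (SD, n = 2). The log2 fold change was -1.46 ± 0.22 (standard error), with a 95% interval from -1.89 to -1.02 (limma adjusted *p* = 7.40e-08), at rank 82 of the 178 genes called lower. Without Rxra-KO replicate 1 it was -0.95 and without Rxra-KO replicate 2 it was -1.96, and both were called. DESeq2 on the recovered reads gave -1.41 with an adjusted *p* of 0.143, so *Pycard* was not called by that tool. By mean value in WT, *Pycard* ranked 22 among all genes and *Naip1* ranked 230.

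The promoter of *Pycard* (chr7:127993868-127994117, minus strand, RefSeq on GRCm38.p6, 250 bases before the start) is shown as that of the other member called lower. Capitals mark TTCCTC, which is the PU.1 core GAGGAA read on the opposite strand, 42 bases before the start, letters that 23.3% of all promoters hold on either strand.
Pycard: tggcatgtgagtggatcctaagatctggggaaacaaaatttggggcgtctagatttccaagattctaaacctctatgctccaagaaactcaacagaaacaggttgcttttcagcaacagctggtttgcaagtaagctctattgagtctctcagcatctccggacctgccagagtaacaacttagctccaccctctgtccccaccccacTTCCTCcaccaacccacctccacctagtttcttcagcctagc

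The letters GAGGAA, on either strand, were also in the windows of *Casp1* and of 1 of the 2 start sites of *Nlrp3*, and in none of the 4 *Naip* windows. Only these exact letters were searched, so other forms of a PU.1 site were not covered.

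The enzymes downstream of the sensors did not pass the test. *Casp1*, the caspase that matures IL-1β and IL-18, had normalised read counts of 390 and 451 in WT and 553 and 355 in Rxra-KO, from 257, 415, 367 and 357 reads. The Rxra-KO libraries lay on either side of both WT libraries, and the log2 fold change was 0.08 with a 95% interval from -0.37 to 0.53 (limma adjusted *p* = 0.975). *Casp4*, which encodes the mouse caspase-11 that responds to cytosolic lipopolysaccharide, had 57 and 102 WT reads against 59 and 101 Rxra-KO reads. Its normalised read counts of 87.1 and 111 against 89.6 and 101 put both Rxra-KO libraries between the WT libraries. Its log2 fold change was -0.05 with a 95% interval from -0.62 to 0.52 (limma adjusted *p* = 0.987). *Gsdmd*, the pore-forming substrate of both caspases, had normalised read counts of 167 and 235 in WT and 166 and 212 in Rxra-KO, from 110, 216, 110 and 213 reads. Here too the groups overlapped, and the log2 fold change was -0.08 with a 95% interval from -0.57 to 0.42 (limma adjusted *p* = 0.981). For *Casp1* and *Gsdmd* the intervals lie within the 0.6 that a call required, and for *Casp4* the interval passes it only on the lower side. These limma intervals rest mostly on variance taken from other genes, so they do not bound the change between animals. The log2 ratio of *Pycard* to *Casp1* was 2.93 and 3.11 in WT and 0.65 and 2.31 in Rxra-KO, lower in both Rxra-KO libraries but far apart between them.

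**Figure D3:**
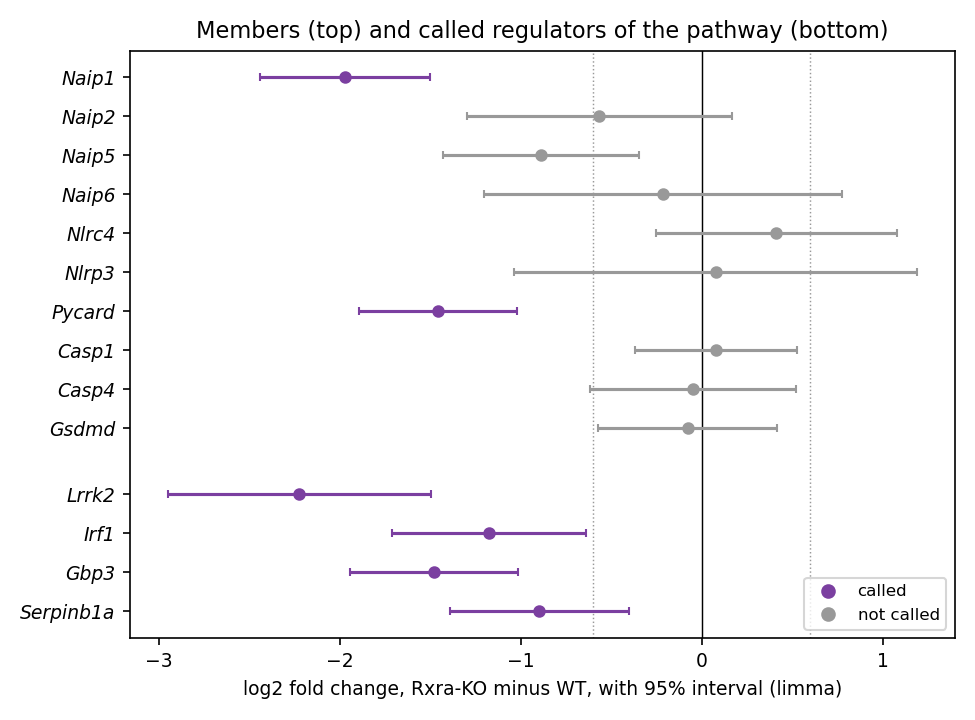
Log2 fold change (Rxra-KO minus WT) with the 95% limma interval of each member (top) and of the 4 other pathway genes that were called (bottom). Purple points were called, grey points were not, and dotted lines mark the fold change that a call required. *Naip1* and *Pycard* stand apart from the other members at -1.97 and -1.46.

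To compare the members with each other, normalised read counts were divided by the length of the longest coding sequence. Whole transcripts are longer, at 3800 against 579 bases for *Pycard* and 4729 against 3108 for *Nlrc4*. The levels and their order therefore depend on this choice of length, and the *Naip* values also carry the unsettled division of shared reads. On this scale (per kilobase of coding sequence) WT LPMs held 5926 of *Pycard*, 349 of *Casp1*, 138 of *Gsdmd*, 126 of *Naip1*, 88.6 of *Casp4* and 38.7 of *Naip5*, as means of 2 libraries. *Nlrc4*, *Naip2*, *Nlrp3* and *Naip6* followed at 15.9, 11.5, 5.34 and 4.99. *Gsdmd* and *Naip1* overlapped between the WT libraries, as did *Nlrc4* with *Naip2* and *Nlrp3* with *Naip6*, so these neighbours have no clear order. In the Rxra-KO libraries *Pycard* still led at 2269, *Casp1* followed at 377 and *Gsdmd* at 130. *Naip1* moved from the fourth place to the fifth, at 32.0, behind *Casp4* at 85.1. *Naip5* and *Nlrc4* then stood level at 20.7 each, and their Rxra-KO libraries overlapped. *Naip1* remained above *Naip5* in every library, at 122 and 129 against 35.8 and 41.6 in WT and at 29.2 and 34.8 against 20.6 and 20.9 in Rxra-KO.

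The other genes of the pathway were taken from a list of 47, of which 45 were in the table. *Il1b* and *Sigirr* are not listed there. Of the 45, 4 were called lower and none higher, against 0.969% and 1.32% of all genes. Among all genes with a mean of at least 100 reads, 6.55% were called lower. *Gbp3*, *Serpinb1a* and *Irf1* of the 4 have mean reads above that mark, and *Lrrk2* does not. The list was chosen with earlier results of these data known, so its count is a description only. The groups did not overlap for 21 of them, 16 with Rxra-KO lower and 5 with Rxra-KO higher, beside 19.3% and 18.8% of all genes (38.1% in either direction). The median log2 fold change was -0.14, and 2 of the 45 had at most 3 reads in every library of both groups. All 4 called genes were among the 15 activators and regulators.

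*Lrrk2*, a kinase linked to the phosphorylation of NLRC4, had 49 and 104 WT reads against 14 and 16 Rxra-KO reads. Its normalised read count was 74.9 and 113 in WT against 21.8 and 16.4 in Rxra-KO, with no overlap. Its log2 fold change was -2.23 ± 0.37 (standard error, limma adjusted *p* = 1.40e-06). *Gbp3*, an interferon-inducible guanylate-binding protein of the family that exposes bacterial ligands in the cytosol, was the most abundant gene of this group. It had normalised read counts of 397 and 707 in WT and 177 and 203 in Rxra-KO. The difference on the log2 scale was -1.48 ± 0.24 (standard error, limma adjusted *p* = 4.16e-07). Without WT replicate 2, the higher of the WT libraries, the difference for *Gbp3* became -1.06.

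*Irf1*, an interferon-induced transcription factor, had normalised read counts of 132 and 340 in WT and 88.1 and 98.8 in Rxra-KO. WT replicate 2 was well above the other 3 libraries. The log2 fold change of -1.18 (limma adjusted *p* = 0.00188) became -0.50 and was no longer called without WT replicate 2, and it was also not called without Rxra-KO replicate 1. *Serpinb1a*, a serine protease inhibitor, had normalised read counts of 237 and 288 in WT and 160 and 122 in Rxra-KO. Its log2 fold change was -0.90 (limma adjusted *p* = 0.0223), and it was not called when any 1 library was left out or by DESeq2.

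None of the other groups of the list held a called gene. Of the 12 other sensors, the most abundant was *Aim2*, the sensor of cytosolic DNA, with 52 and 68 WT reads against 51 and 81 Rxra-KO reads. Its log2 fold change was 0.04 with a 95% interval from -0.56 to 0.64. Of the 3 cytokines, *Il18*, a substrate of caspase-1, led with 36 and 23 WT reads against 17 and 29 Rxra-KO reads, at a log2 fold change of -0.42. Of the 7 receptors and antagonists of the IL-1 family, *Il18r1* led with 14 and 20 WT reads against 16 and 23 Rxra-KO reads, at 0.12. Of the 8 other caspases and cell death effectors, *Ripk1*, a kinase of the necroptosis pathway, led with 81 and 123 WT reads against 66 and 154 Rxra-KO reads, at -0.05.

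**Figure D4:**
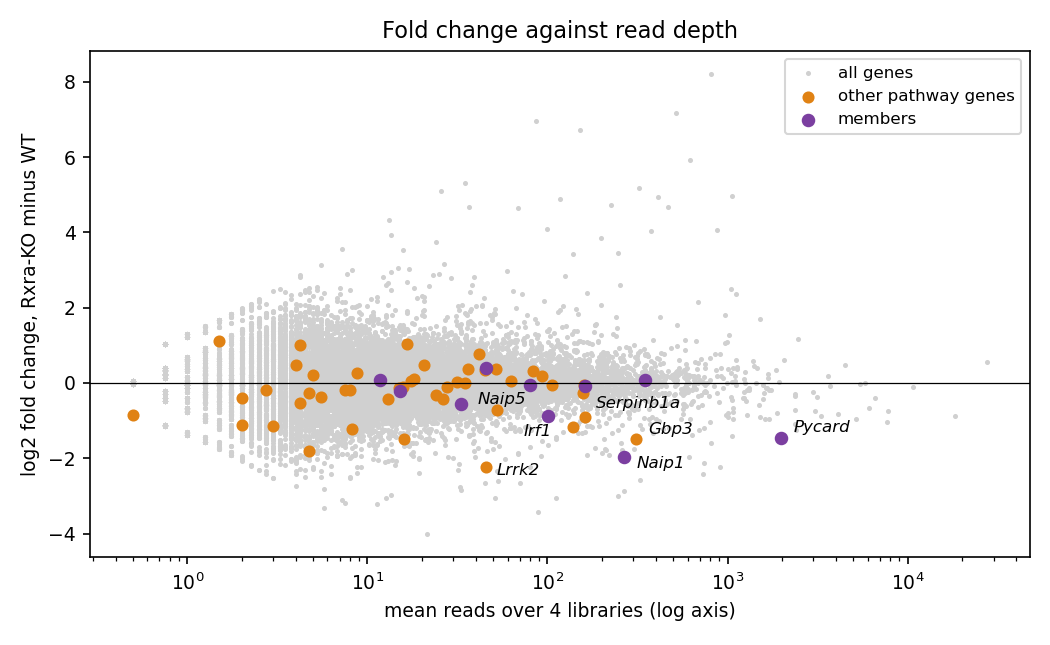
Log2 fold change (Rxra-KO minus WT) against the mean reads over the 4 libraries (log axis) for all 18364 genes (grey), the other pathway genes (orange) and the members (purple), with the called ones and *Naip5* named. Members have mean reads from 11.8 to 1974, and fold changes of genes with few reads scatter widely.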

How the data were processed

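Bulk RNA of sorted LPMs was sequenced in 2 WT and 2 Rxra-KO libraries, grouped by their labels. The deposited values are a normalised read signal per gene. The study's methods name Kallisto (0.43.0), tximport and TMM scaling, but 100% of the values gave whole reads (tolerance 0.001 reads), whereas Kallisto gives estimates that can be fractional. The submitters' notes list the human build GRCh38 although the libraries are from mice, so neither the counter nor the reference behind the table was settled. Samples that did not group with their condition were excluded by the study and were not analysed here. Each gene was fitted with limma 3.58.1 (R 4.3.3) with a mean-variance trend on log2(value + 1), which understates changes of low genes. The filter (2 or more libraries with a value of 1 or more) removed 0 genes. Two-sided *p* values were adjusted by Benjamini-Hochberg over 18364 genes and rest on 227 prior against 2 residual degrees of freedom. An exact permutation test of 2 against 2 cannot go below 0.333. The tests were checked on simulated data. Alternatives used edgeR 4.0.16, voom and DESeq2 1.42.0 on recovered reads, other scalings, filters and pseudocounts. All members, called pathway genes and the most abundant gene of each pathway group are named. The members and the lists were chosen with earlier results of these data known.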

Additional observations from a re-analysis of the deposited data

How the results depend on the processing

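The number of inflammasome genes called was 2 under most alternatives, including edgeR, voom and every omission of a library (lowest and highest 2). It was 3 with median-of-ratios size factors, 1 with DESeq2 and 0 with limma without a mean-variance trend. For the other pathway genes the number was 4, and it was 3 with DESeq2, 3 when a log2 fold change of at least 1 was required and 0 without the trend. Over the whole table it was 421, with 235 in DESeq2 and 0 without the trend. The fit without the trend had 1579 genes at an unadjusted *p* under 0.05, 2 of them members and 6 of them other pathway genes. Leaving out 1 library gave 167 to 381 genes over the whole table, with 240 without WT replicate 2 and 167 without Rxra-KO replicate 1, and 2 to 3 other pathway genes, with 2 without WT replicate 2 and 2 without Rxra-KO replicate 1. Samples with the same replicate number deviated together with a correlation of only 0.0350 over 2 pairs, so the numbers were not taken as pairs. With the replicate block 540 genes were called, 3 of them members, since *Naip5* had a limma adjusted *p* of 0.0185, and 4 of them other pathway genes. Adding the 4 *Naip* genes together gave a log2 fold change of -1.48. *Nlrp3* turned to -0.065 in edgeR and to -0.11 in DESeq2.

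No log2 fold change that turned sign when a library was left out was called. Their lowest and highest values were -0.82 and 0.39 for *Naip6*, -0.68 and 0.83 for *Nlrp3*, -0.24 and 0.40 for *Casp1*, -0.22 and 0.13 for *Casp4* and -0.32 and 0.17 for *Gsdmd*. Outside the members they were -0.0047 and 0.091 for *Aim2*, -0.97 and 0.12 for *Il18*, -0.36 and 0.25 for *Ripk1* and -0.31 and 0.22 for *Irf8*. Of 339 pairs of a named gene and an alternative, 299 kept their direction and their side of the threshold, leaving out the fit without a filter, which repeats the reported one because the filter removed 0 genes. Genes with few reads, such as *Naip6* and *Nlrp3*, allow only large changes to be seen.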

Other observations

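Some further pathway genes are given because of their values, so they were chosen after these were seen. *Panx1*, a membrane channel that releases ATP, had 21 and 27 WT reads against 8 and 8 Rxra-KO reads, a log2 difference of -1.49 (limma adjusted *p* = 0.126). *Casp8*, a caspase that joins cell death pathways with inflammasomes, had 28 and 30 WT reads against 45 and 63 Rxra-KO reads, a log2 difference of 0.78 (limma adjusted *p* = 0.359). *Mlkl*, the pore-forming protein of necroptosis, had 9 and 7 WT reads against 1 and 2 Rxra-KO reads (limma adjusted *p* = 0.322). None of these 3 was called, although their groups did not overlap. *Irf8*, a transcription factor of macrophages that is known to raise *Naip* and *Nlrc4* expression, had 141 and 163 WT reads against 104 and 228 Rxra-KO reads, a log2 difference of -0.04 with a 95% interval from -0.54 to 0.45 (limma adjusted *p* = 0.987).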
